A study of Mus musculus with 10 samples.

Results

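The cells described here are epithelial cells of the E16.5 mouse lower incisor bud that carried at least 2 unique molecular identifiers (UMIs, each counting 1 captured RNA molecule) of *Shh*. A cell was taken as epithelial when it had at least 700 genes, at most 20% of its UMIs from mitochondrial genes, a UMI of at least 3 of the 9 epithelial genes *Epcam*, *Krt5*, *Krt14*, *Krt17*, *Dsp*, *Dsc3*, *Dsg2*, *Sfn* and *Trp63*, and a UMI of at most 1 of the 3 mesenchymal genes *Pdgfra*, *Prrx1* and *Twist1*. Of 4511 E16.5 cells that passed the filter on genes and mitochondrial UMIs, 1657 were epithelial by these markers, and 371 of them were *Shh* cells. The share was 22.4% of the epithelial cells (exact 95% binomial interval 20.4 to 24.5). Over the 3 stages of the series 17175 cells passed the filter. Another 1158 epithelial cells of E16.5 had no *Shh* UMI and 128 had exactly 1. *Shh* UMIs chose the cells, so the level of *Shh* itself is given as a description and every gene of these cells is described without a test.

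*Shh* encodes Sonic hedgehog, a secreted ligand that acts on neighbouring cells by binding the receptor Patched 1, which frees Smoothened and lets the Gli factors switch on target genes such as *Ptch1* and *Gli1*. In the tooth the ligand comes from the epithelium. At the cap stage it is made in the enamel knot, a signalling centre that largely does not divide and that also secretes FGFs, BMPs and Wnts. Later it is made in the inner enamel epithelium and its descendants that go on to become ameloblasts, the cells that deposit enamel, and it acts on the dental papilla and on the epithelium itself.

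The mice were wild type and of the NMRI strain. Whole mandibles of E11.5 and lower incisor buds of E14.5 and E16.5 were dissociated with collagenase and sequenced as single cells by the 10x Genomics 3' method. The labels list 4, 4 and 2 samples, and the study's methods give 2 mandibles from 2 litters for E16.5, but each stage was deposited as 1 matrix in which no barcode can be assigned to a sample. Each stage is therefore 1 sample, there is no replicate error, no p-value is given, and stage and sample cannot be told apart.

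All intervals below are at the 95% level and cover counting error only. Levels are in CPM, which stands for the UMIs of a gene per 1000000 UMIs of all genes, both added up over a group's cells. The *Shh* cells were deeper than the rest of the epithelium, with a median of 9816 UMIs against 6321.5 in epithelial cells without a *Shh* UMI, so 369 of the 371 *Shh* cells were each matched to a *Shh*-0 cell of nearly the same depth (medians of 9804 and 9792 UMIs). The median number of genes was 3007 in both matched groups, and the median mitochondrial share was 3.56% and 3.21%. A gene was called higher or lower when its ratio between the matched groups, with 10 CPM added to each side, was past 2-fold, that is past 1 on the log2 scale. To be ranked, a gene needed 50 counts in all and a UMI in 10% of the cells of 1 of the groups. Of the 9008 genes ranked, 93 were higher in *Shh* cells (1.03%) and 83 were lower (0.921%), and the median log2 ratio over all of them was -0.00, and 90% of them lay between -0.43 and 0.46. A gene that passed the filter only through the group where it was high had to differ, so counts over ranked genes are a description. The stages share 13, 17 and 16 barcode sequences between them, a number small beside the 5719 to 8708 barcodes of a matrix.

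The markers fitted the description of the cells as epithelium of the tooth. *Shh* cells had a UMI of a median of 8 of the 9 epithelial genes, as had the matched *Shh*-0 cells, though the rule had asked for 3. *Isl1* and *Dlx2*, transcription factor genes of dental epithelium that were not part of the rule, had a UMI in 84.3% and 66.4% of *Shh* cells and in 87.5% and 62.6% of *Shh*-0 cells. *Krt4* and *Krt13*, keratins of the stratified oral lining, had no count in either epithelial group, and *Krt15*, a basal keratin, had a UMI in 1.62% of *Shh* cells and 10.3% of *Shh*-0 cells.

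*Shh* cells carried 2 to 118 *Shh* UMIs each, with a median of 5 and quartiles of 3 and 9. Per 10000 UMIs of the cell this was 0.315 to 46.1, with a median of 5.11. At the edge of the rule, the 80 cells with exactly 2 *Shh* UMIs held a median of 2.75 per 10000 and the 128 cells with 1 UMI, which were left out of both groups, held 1.39. In other cells of E16.5 few *Shh* UMIs were found. Of 1455 mesenchymal cells with a median of 6500 UMIs, 15 had a *Shh* UMI (1.03%, interval 0.578 to 1.69) and 0 had 2 or more, which allows a share of up to 0.206% when 3 cells are taken as the limit for a count of 0, and of up to 0.253% by the exact interval. Among 1347 E16.5 cells that met none of the epithelial, mesenchymal, erythroid and immune marker rules, 25 had at least 2 *Shh* UMIs (1.86%, interval 1.205 to 2.73).

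For the genes that led the comparison, the sequence just upstream of the gene was read from RefSeq (GRCm38.p6, 250 bases before the annotated start, 5′ to 3′ on the strand of the gene). *Vwde* and *Fgf9* are shown because they were the genes of highest rank with an entry in the table, and *Cttnbp2*, also among the 10 genes of highest rank, because it holds a motif that was searched. The regions are chr6:13224966-13225215 on the minus strand, chr14:58072436-58072685 on the plus strand and chr6:18514870-18515119 on the minus strand. The start that RefSeq gives for *Fgf9* lies inside the gene as GENCODE places it. Capitals mark the motif GGGCGG (the GC box bound by Sp factors).
Vwde: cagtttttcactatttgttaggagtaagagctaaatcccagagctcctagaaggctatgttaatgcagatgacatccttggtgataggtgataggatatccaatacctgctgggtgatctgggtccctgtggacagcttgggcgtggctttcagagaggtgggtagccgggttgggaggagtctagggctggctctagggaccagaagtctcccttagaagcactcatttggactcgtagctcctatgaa
Fgf9: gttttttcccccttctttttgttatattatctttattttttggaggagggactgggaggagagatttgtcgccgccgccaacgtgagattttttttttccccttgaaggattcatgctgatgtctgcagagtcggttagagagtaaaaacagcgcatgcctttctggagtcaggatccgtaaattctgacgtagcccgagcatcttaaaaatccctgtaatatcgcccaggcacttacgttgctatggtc
Cttnbp2: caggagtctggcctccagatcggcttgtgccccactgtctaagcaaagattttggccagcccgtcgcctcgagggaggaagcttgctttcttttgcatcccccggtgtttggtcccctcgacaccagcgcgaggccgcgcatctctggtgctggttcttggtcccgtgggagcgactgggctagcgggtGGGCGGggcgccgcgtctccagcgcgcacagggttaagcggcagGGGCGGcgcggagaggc
Searched on both strands, GGGCGG was found only in the *Cttnbp2* window, at 61 to 56 and 17 to 12 bases before the start. The motif CTTTGA (the core of TCF and LEF sites) was in none of the 3 windows. Of the 93 genes higher in *Shh* cells, 71 had an entry, with 98 promoters between them. GGGCGG was in 49 of these 98 promoters, in 47.7% of the 86 promoters of the genes that were lower, and in 32.7% of all 32851 promoters in the table. CTTTGA was in 11.2%, 13.95% and 13.8% of the same sets. These are letter matches and say nothing about binding.

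*Igfbpl1*, *Vwde* and *Fgf9* stood at the top of the ranking. *Igfbpl1*, a secreted protein of the IGF-binding protein family (GRCm38 chromosome 4, 45809468 to 45826923, annotation of GENCODE vM21), was at 339.8 CPM (325 to 356) in *Shh* cells and 40.1 CPM (35.0 to 45.8) in *Shh*-0 cells, a ratio of 8.47 (7.36 to 9.79). *Vwde*, which encodes a protein with von Willebrand factor D and EGF domains (chromosome 6, 13156299 to 13224965), was at 365 CPM (349 to 382) against 49.5 CPM (43.8 to 55.8) and had a UMI in 76.2% of *Shh* cells and 20.9% of *Shh*-0 cells. *Fgf9*, an FGF ligand (chromosome 14, 58070547 to 58112720), was at 92.2 CPM (84.3 to 101) against 6.26 CPM (4.33 to 8.74), a ratio of 14.7 (10.4 to 21.5). In mesenchymal cells, which should lack them, a UMI of *Vwde* was found in 1.92%, of *Igfbpl1* in 1.37% and of *Fgf9* in 0.344% of cells.

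Next in rank were *Slc40a1*, the iron exporter ferroportin (95.6 against 7.91 CPM), *Frem1*, a basement membrane protein (111 against 15.1 CPM), *Cttnbp2*, a cortactin-binding protein (93.6 against 12.0 CPM), and *Rprm*, which encodes the cell cycle arrest protein reprimo (59.3 against 6.26 CPM). *Camk2d*, a calcium-dependent kinase subunit, stood at 113 against 21.7 CPM and the methyltransferase gene *Smyd3* at 107 against 20.6 CPM. The guidance ligand gene *Slit2* stood at 49.0 against 5.89 CPM, and its receptor gene *Robo1*, picked out after its values had been seen, was also called higher, at 144 against 49.0 CPM. Calls among other guidance genes went both ways, with *Unc5c* at 152 against 49.1 CPM and *Nrp2* at 262 against 113 CPM higher and the ligand gene *Sema3a* at 35.6 against 122 CPM lower, and these too were picked out after their values had been seen. Others among the 25 largest ratios were *Arrb1* (beta-arrestin 1), *C9orf72*, *Proser2*, *Pam* (which amidates peptides), *Enpp1* (which makes pyrophosphate, an inhibitor of mineral), *Tmem229a*, *Nav3*, *Stac*, *Dach1*, *Adamts17*, *Ly6g6e* and *Pcca*, with log2 ratios from 1.57 (*Pcca*) to 1.89 (*Arrb1*). *Tmem229a* had the largest plain ratio of the 25 genes, 20.4 (9.64 to 51.6), at 26.3 against 1.29 CPM. *Gm49708* had a log2 ratio of 1.93 at 104 against 19.9 CPM. *Cdkn1a* and *Wnt5a*, which complete the 25 genes, are described with their groups.

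The lowest ratio belonged to *Slc12a2*, a sodium, potassium and chloride cotransporter, at 56.0 CPM (49.9 to 62.6) in *Shh* cells and 415 CPM (398 to 433) in *Shh*-0 cells, a ratio of 0.135 (0.119 to 0.152). *Igfbp3*, an IGF-binding protein, was at 9.91 against 85.0 CPM. *Sostdc1*, a secreted inhibitor of BMP and Wnt signalling that restrains tooth formation, was at 219 CPM (207 to 232) against 1043 CPM (1016 to 1070.4). Its UMIs were found in 56.4% of *Shh* cells and 85.1% of *Shh*-0 cells, so that it was reduced rather than absent. *Sparcl1*, *Pthlh* (parathyroid hormone-like hormone) and the transcription factor genes *Tshz2* and *Nfib* were also among the 15 smallest ratios. So were the adhesion gene *Tenm2*, the neurotrophin receptor gene *Ntrk2*, *Ppargc1a* and *Lmo1*. *Pthlh* stood at 15.6 against 86.5 CPM, *Nfib* at 79.5 against 303 CPM and *Lmo1* at 8.81 against 51.7 CPM. The remaining 4 were the globin genes *Hbb-bt*, *Hba-a2*, *Hba-a1* and *Hbb-bs*, described below with the other blood genes.

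**Figure D1:**
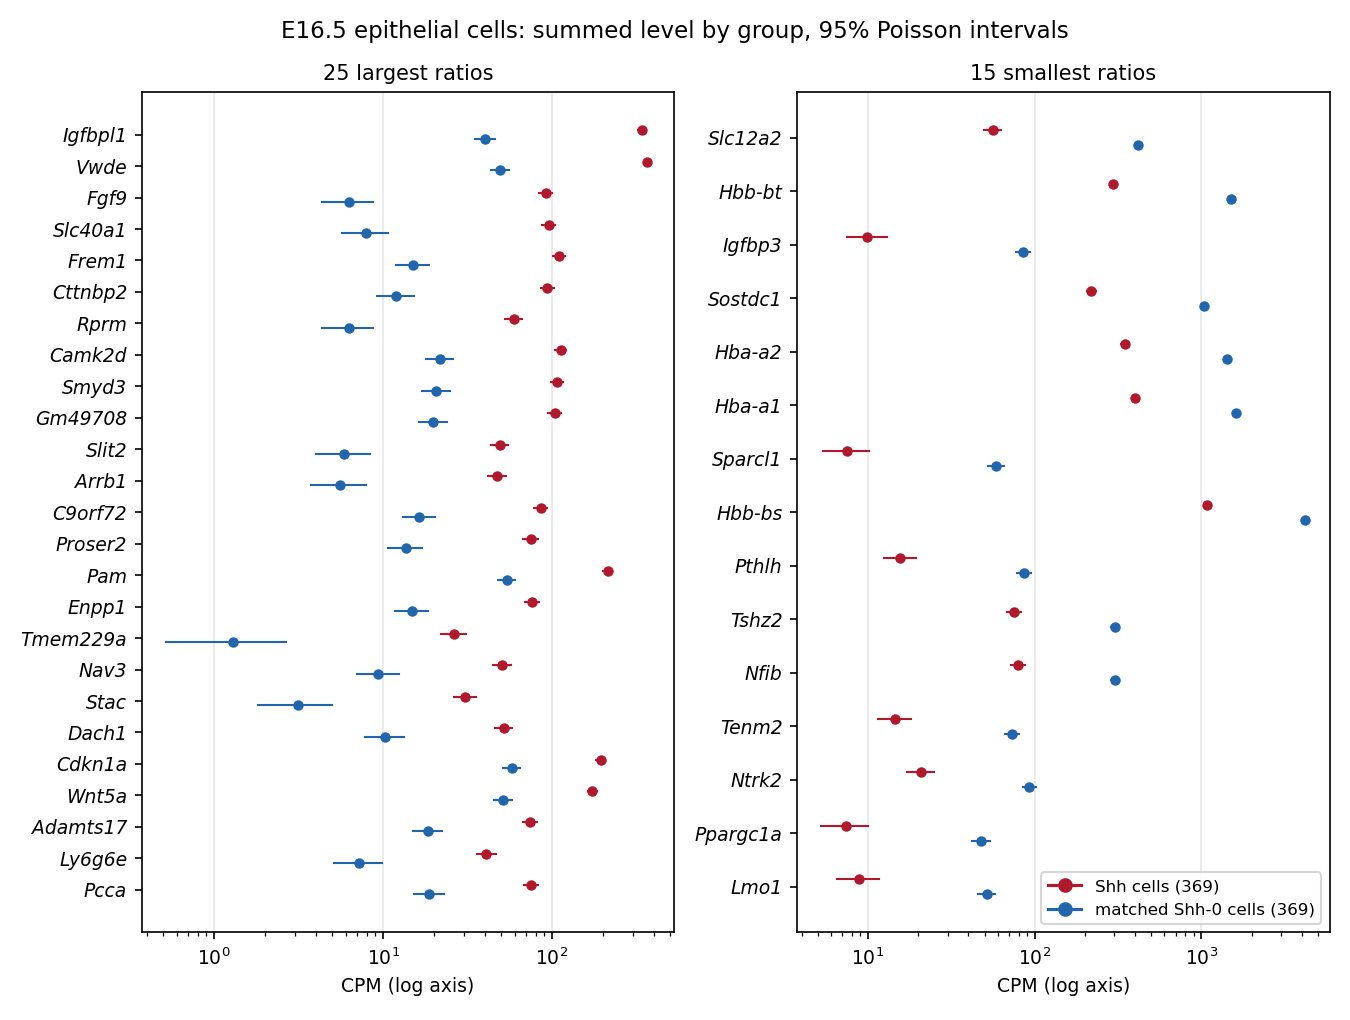
Level in CPM (log axis) of the 25 genes with the largest and the 15 genes with the smallest ratio, in 369 *Shh* cells (red) and 369 depth-matched *Shh*-0 cells (blue) of the E16.5 epithelium, with 95% Poisson intervals as bars. *Fgf9* goes from 6.26 CPM in *Shh*-0 cells to 92.2 CPM in *Shh* cells, and *Slc12a2* from 415 to 56.0 CPM.

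The counts of called genes in each E16.5 list below stand beside 1.03% of all ranked genes called higher and 0.921% called lower. A list of few ranked genes with no call cannot be set apart from these shares. A listed gene with a UMI in under 10% of the cells of 1 group passed the filter only through the other group. The counts are therefore a description. Transcripts of the hedgehog pathway were found in the cells that made the ligand, and a release factor was called higher while no target was. *Scube3*, which encodes a secreted protein of a family that helps hedgehog leave the cell, was higher, at 88.7 CPM (80.9 to 96.9) against 37.2 CPM (32.2 to 42.7). It was the higher of the 2 ranked genes of 7 listed for the ligand and its release, the other being *Disp1*, the transporter that exports the ligand, at 7.53 against 5.52 CPM. The related ligand gene *Ihh* had no count in either group, and *Dhh* had 0 counts in *Shh* cells and 1 in *Shh*-0 cells. Of the 11 genes listed for receptors and transducers 9 were ranked and none was called, with a median log2 ratio of -0.11. *Smo* was at 62.1 against 61.8 CPM, *Gli2* at 8.26 against 9.57 CPM and *Gli3* at 45.5 against 66.3 CPM.

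Of the 4 hedgehog targets listed 3 were ranked and none was called. *Ptch1* was at 174 CPM (163 to 185) in *Shh* cells and 255 CPM (242 to 269) in *Shh*-0 cells, and *Gli1* at 28.1 CPM (23.8 to 32.9) against 40.7 CPM (35.5 to 46.4). The counting intervals of the groups did not overlap for *Ptch1* and *Gli1*, but neither ratio reached the 2-fold limit. In mesenchymal cells *Ptch1* was at 531 CPM (517 to 544) and *Hhip*, a target that binds and holds the ligand, was at 46.0 CPM (42.2 to 50.1), against 1.84 CPM for *Hhip* in *Shh* cells. Both kinds of epithelial cell therefore held *Ptch1* transcripts at a level under that of the mesenchyme.

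Among FGF ligands the *Shh* cells of E16.5 carried *Fgf9* and hardly another. *Fgf9* was the only one of 12 FGF ligand genes that passed the filter on low values. *Fgf3*, *Fgf4*, *Fgf15* and *Fgf20*, ligands of the enamel knot or the tooth bud, had 1, 6, 0 and 0 counts over all matched *Shh* cells, so that their levels were at most 1.10 CPM. *Fgf10*, a ligand of the dental mesenchyme, had 1 count. Of 12 genes of the FGF response, including receptors, 10 were ranked. *Spry2*, an inhibitor that FGF signalling induces, was higher at 91.8 CPM (83.9 to 100.2) against 33.7 CPM (29.0 to 38.9), while *Spred1*, another inhibitor of the pathway, was lower at 42.2 CPM (36.9 to 48.0) against 103 CPM (94.5 to 112). The induced factors *Etv4* and *Etv5* stood at 40.8 against 26.9 CPM and 29.6 against 40.9 CPM and were not called. *Fgfr1* stood at 247 against 189.7 CPM and *Fgfr2* at 72.5 against 93.1 CPM. *Il17rd*, an inhibitor of FGF receptor signalling that is in none of the lists and was picked out after its values had been seen, was also called higher, at 54.2 against 18.2 CPM.

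Wnt ligands differed in kind. *Wnt5a*, a ligand that mostly signals without beta-catenin, was at 173 CPM (163 to 185) in *Shh* cells and 51.3 CPM (45.5 to 57.7) in *Shh*-0 cells. *Wnt10a* was at 28.8 CPM (24.5 to 33.7) against 7.91 CPM (5.73 to 10.7) and *Wnt10b* at 14.7 CPM (11.6 to 18.3) against 1.47 CPM (0.636 to 2.90), and these 3 genes were the higher ones of 8 ranked among 12 listed. *Wnt4* was lower, at 110.0 CPM (101 to 119) against 252 CPM (239 to 266). *Wnt6* stood at 63.9 against 38.8 CPM and was not called, and *Wnt7b* stood at 1.84 against 10.5 CPM. The median log2 ratio of the ranked ligand genes was 0.72.

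Genes induced by signalling through beta-catenin included some that were higher and none that was lower. Of 9 ranked of 15 listed, *Lef1* (61.9 against 23.6 CPM), the transcription factor of the pathway, and *Apcdd1* (21.8 against 5.89 CPM), a membrane inhibitor it induces, were called higher, with a median log2 ratio of 0.57. *Axin2*, a widely used reporter of the pathway, stood at 20.7 CPM (17.1 to 24.9) against 10.7 CPM (8.11 to 13.8) and *Sp5* at 15.8 against 6.26 CPM, short of the 2-fold limit. Of the secreted Wnt antagonists 6 of 10 were ranked. *Wif1*, which binds Wnt ligands, was higher at 50.3 CPM (44.5 to 56.6) against 13.6 CPM (10.7 to 17.1). *Sostdc1* and *Dkk1* were lower, *Dkk1* at 2.20 against 14.9 CPM. *Sostdc1* holds most of the counts of this list, and the summed list was at 316 against 1135 CPM.

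The calls among BMP and ectodysplasin genes were *Fst* and *Edaradd*, beside 1.03% of all ranked genes called higher and 0.921% called lower. Of 8 ranked genes of 12 BMP ligands, antagonists and inhibitors, *Fst* (follistatin, which holds activin and BMPs) was lower, at 24.6 CPM (20.6 to 29.1) against 72.5 CPM (65.5 to 80.03), and none was higher. *Bmp7* stood at 44.4 against 21.2 CPM and *Bambi*, a pseudoreceptor that dampens the response, at 523 against 300.2 CPM. *Bmp2* and *Bmp4*, ligands of the enamel knot, stood at 6.98 against 12.0 CPM and at 7.71 against 6.81 CPM. None of the 8 ranked genes of the BMP response was called, and the summed list was at 1835 against 1848 CPM. *Edaradd*, the adaptor of the ectodysplasin receptor, was higher at 61.1 CPM (54.7 to 68.1) against 21.5 CPM (17.8 to 25.8), whereas *Edar*, the receptor itself, had 2.75 CPM in *Shh* cells and was too low to rank. It was the only call among the 5 ranked of 9 genes of that pathway.

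An enamel knot list of 20 genes, which overlaps the ligand lists, had 10 ranked members. Of these, 5 were higher and 0 lower, beside 1.03% and 0.921% of all ranked genes. The higher ones were *Fgf9*, *Wnt10a*, *Wnt10b*, *Lef1* and *Cdkn1a*, and the median log2 ratio of the list was 0.95. *Fgf9*, *Wnt10a* and *Wnt10b* had a UMI in 7.32%, 9.49% and 2.17% of *Shh*-0 cells. They passed the filter only through the *Shh* cells, where they were high, so the count and the median are a description. *Cdkn1a*, which encodes the inhibitor p21 of cyclin-dependent kinases, was at 194 CPM (182 to 206) against 57.8 CPM (51.6 to 64.5) and had a UMI in 71.0% against 33.3% of cells. *Msx2* stood at 205 against 146 CPM and *Tnfrsf19* at 113 against 89.4 CPM. The FGF, BMP and *Dkk4* members of the list that stood at or near 0 are given with their pathways, and *Dkk4* had 1 count in *Shh* cells.

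Genes of the ameloblast lineage were mostly too low to rank. Of 17 listed 5 were ranked, and 2 were higher. *Sp6*, the transcription factor epiprofin that tooth epithelium needs to form ameloblasts, was at 186 CPM (174 to 197) against 61.3 CPM (54.9 to 68.2), and *Ambn*, the enamel matrix gene ameloblastin, was at 28.5 CPM (24.2 to 33.3) against 7.91 CPM (5.73 to 10.7) with a UMI in 16.8% of *Shh* cells. *Enam* (enamelin) was at 8.63 CPM (6.34 to 11.47) against 1.10 CPM (0.405 to 2.40), with 47 and 6 counts, and did not reach the share of cells the ranking asks for. *Amelx* (amelogenin, the main enamel protein) had 0 counts in *Shh* cells and 1 in *Shh*-0 cells, and the enamel proteases *Mmp20* and *Klk4* had 1 and 0 counts in *Shh* cells. Transcripts of the early matrix genes were thus found in some of the cells, and those of amelogenin were not detectable at this depth. *Satb1* and *Dlx3*, further regulators of the lineage, stood at 292 against 192 CPM and at 55.8 against 45.8 CPM.

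Transcription factors of the dental epithelium were called in both directions, beside 1.03% of all ranked genes called higher and 0.921% called lower. Of 17 ranked of 24 listed, *Sp6* was the only higher one and *Pitx1* the only lower one, at 47.5 CPM (41.9 to 53.7) against 130.5 CPM (121 to 140.4). *Isl1* stood at 333 against 376 CPM, *Dlx2* at 157 against 151 CPM and *Bcl11b* at 92.0 against 175 CPM. The median log2 ratio was -0.39.

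Some markers of the stem cell region, the cervical loop, were lower and none was higher. Of 16 listed 10 were ranked and 4 were lower, beside 0.921% of all ranked genes. *Sox2*, the stem cell factor of the incisor, was at 4.77 CPM (3.12 to 6.99) against 22.1 CPM (18.3 to 26.4) and had a UMI in 4.88% of *Shh* cells and 12.7% of *Shh*-0 cells. The other lower genes were *Pcp4* (12.5 against 48.2 CPM), *Fzd5* (10.5 against 34.0 CPM) and *Lgi2* (28.3 against 69.0 CPM). *Igfbp5* stood at 546 against 789 CPM, and *Lgr5* had 2 counts in *Shh* cells. *Tbx1*, a regulator of dental epithelial growth, stood at 104 against 68.6 CPM.

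The stratum intermedium and stellate reticulum are the inner layers of the enamel organ, and their list of 15 genes had 11 ranked. *Notch2* was lower at 55.1 CPM (49.0 to 61.7) against 129 CPM (119.6 to 139), as was *Wnt4*, and none was higher. *Notch1* stood at 29.0 against 40.5 CPM, *Alpl* (alkaline phosphatase) at 42.6 against 78.8 CPM and *Hes1*, which Notch induces, at 169 against 169 CPM. Of 9 ranked genes of 16 listed for oral and outer epithelium, *Krt15* and *Meis1* were lower, at 1.47 against 18.6 CPM and 9.18 against 39.9 CPM, and *Igfbpl1* was higher. *Igfbpl1* had been placed in that list and here led the *Shh* cells.

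Cell cycle genes stood at nearly the same level in both groups. None of the 10 genes of the cell cycle list (*Mki67*, *Top2a*, *Cdk1* and others) was called, and the summed list was at 2504 CPM in *Shh* cells against 2570.2 CPM, a ratio of 0.974 (0.951 to 0.997). *Mki67* had a UMI in 56.9% of *Shh* cells and 57.7% of *Shh*-0 cells, and *Top2a* in 62.1% and 59.9%. None of the 13 S phase genes was called either, at 901 against 991 CPM in sum. Of the inhibitors of the cycle, *Cdkn1a* was higher and *Cdkn1c*, which encodes p57, was lower, at 67.9 CPM (61.2 to 75.2) against 181 CPM (169.8 to 193). *Cdkn1b* stood at 59.8 against 69.6 CPM and the cyclin gene *Ccnd1* at 218 against 137 CPM.

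**Figure D2:**
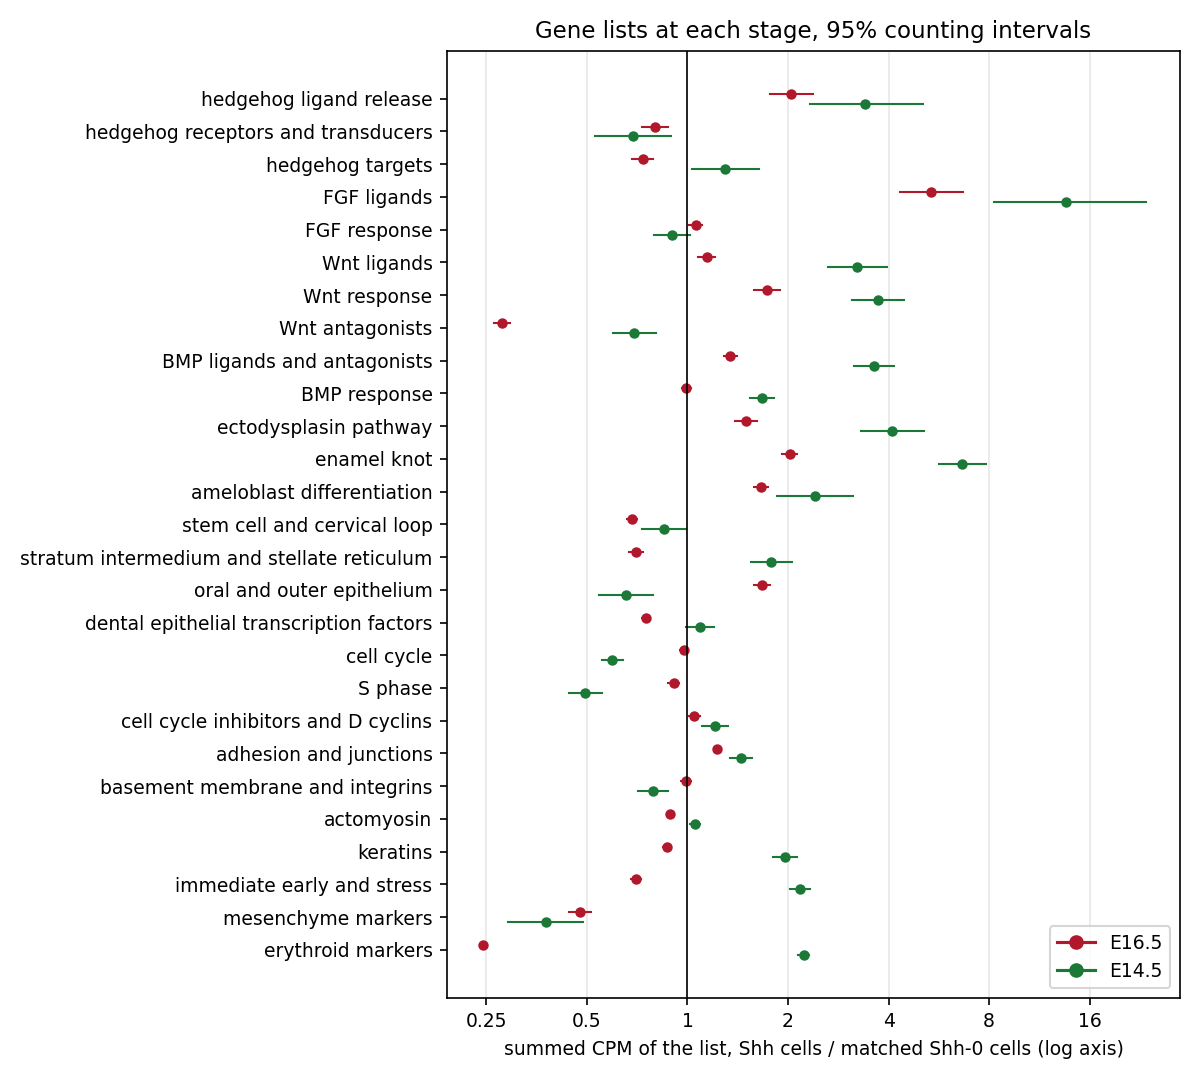
Ratio of the summed CPM of each gene list between *Shh* cells and depth-matched *Shh*-0 cells (log axis), at E16.5 (red, 369 cells a group) and E14.5 (green, 73 cells a group), with 95% counting intervals. The FGF ligand list lies to the right of 1 at both stages, at 5.36 and 13.5, while the cell cycle list lies at 0.974 at E16.5 and 0.596 at E14.5.

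Calls among adhesion, matrix and cytoskeleton genes stand beside 1.03% of all ranked genes called higher and 0.921% called lower. Of 16 ranked of 20 adhesion and junction genes, *Cdh2* (N-cadherin) was higher at 47.4 CPM (41.8 to 53.5) against 17.3 CPM (13.98 to 21.2) and *Nectin4* lower at 23.9 CPM (19.9 to 28.3) against 59.4 CPM (53.1 to 66.3). *Cdh1* (E-cadherin) stood at 40.2 against 70.3 CPM, *Cdh3* at 83.2 against 51.0 CPM, *Cldn1* at 45.7 against 18.8 CPM and *Gja1* (connexin 43) at 961 against 668 CPM. Of 14 ranked of 17 basement membrane and integrin genes none was higher. *Itga6* stood at 199 against 137 CPM. None of the 17 ranked of 20 actomyosin genes was called, and their sum was at 6725 against 7573 CPM. None of the 5 ranked of 7 keratins was called, and *Krt5*, *Krt14* and *Krt17* chose the cells in both groups.

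Genes of other cell types and of cell handling differed between the groups and are given as measured. The 8 erythroid genes summed to 2127 CPM in *Shh* cells and 8686 CPM in *Shh*-0 cells, and all 4 ranked members were lower in *Shh* cells. The median over single cells was 206 CPM in *Shh* cells and 222 CPM in *Shh*-0 cells, and the highest cell was at 258796 and 710800 CPM. In 3 of 371 *Shh* cells and 13 of 369 matched *Shh*-0 cells the erythroid genes made up over 1% of UMIs. Without such cells *Hba-a1*, *Hba-a2* and *Hbb-bs* were no longer lower, with log2 ratios of 0.22, 0.19 and 0.05, and *Hbb-bt* was at -0.27, so the globin calls rested on those cells. Leaving them out was chosen after seeing the data. The counts of called genes were then 93 higher and 86 lower, of which 89 and 79 were among those called with all cells.

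Of the 9 mesenchymal genes 4 were ranked, *Col1a2* was lower at 43.1 against 107 CPM, and the summed list was at 185 against 387 CPM, with medians over single cells of 0 and 169.8 CPM and the highest cell at 7562 and 6489 CPM. *Pdgfra*, *Prrx1* and *Twist1*, which the rule limits, stood at 8.81, 2.02 and 1.84 CPM in *Shh* cells, and a UMI of 1 of them was in 11.3% of *Shh* cells and 14.1% of *Shh*-0 cells. Immediate early and stress genes, which dissociation can raise, had no call among 10 ranked and summed to 1013 against 1445 CPM. Immune genes summed to 18.7 against 0.736 CPM, with 1 *Shh* cell at 4449 CPM. Endothelial, glial and muscle genes summed to at most 28.5 CPM in either group. The part of any of these in the other results was not tested.

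Set beside E14.5, the *Shh* cells of E16.5 shared some of the genes that were higher than in *Shh*-0 cells and differed in others. No difference between the stages was tested, since each is 1 sample. The same rule found 75 *Shh* cells among 852 epithelial cells at E14.5 (8.80%, interval 6.99 to 10.9). At E11.5 it found 0 among 6, with an interval that reaches 45.9%, and all barcodes together held 2 *Shh* UMIs. A limit of 2 UMIs depends on depth, and epithelial cells held medians of 4960 UMIs at E14.5 and 7149 at E16.5. At E14.5 73 cells were matched, at medians of 5893 and 5889 UMIs. Of 3759 genes ranked there, 155 were higher (4.12%) and 96 lower (2.55%). The groups are smaller and the filter leaves fewer genes than at E16.5, so the shares of calls at the 2 stages are not comparable. Of the 93 genes higher at E16.5, 39 could be ranked at E14.5 and 30 of these were higher there too (76.9%). Some of the 39, such as *Slc40a1* with a UMI in 1.37% of *Shh*-0 cells at E14.5, were ranked there only through the *Shh* cells. The 30 genes make up 32.3% of the E16.5 list and 19.4% of the E14.5 list. Genes not ranked at E14.5 were too low or sparse there to be called. These 30 genes include *Fgf9*, *Wnt5a*, *Wnt10a*, *Lef1*, *Apcdd1*, *Wif1*, *Scube3*, *Spry2*, *Cdkn1a*, *Sp6*, *Slc40a1*, *Frem1* and *Camk2d*. Of the 83 lower genes 42 could be ranked at E14.5 and 19 of these were lower there too (45.2%). Among the 19 were *Sostdc1*, *Slc12a2*, *Nfib*, *Tshz2*, *Ntrk2*, *Spred1* and *Meis1*. *Fgf9* was at 103 CPM (81.0 to 129) against 13.8 CPM (6.60 to 25.3) at E14.5, and the interval of its level in *Shh* cells overlaps that of E16.5.

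Several signals of the enamel knot were found in a larger share of the *Shh* cells of E14.5 than of those of E16.5. *Fgf4* was at 117 CPM (93.2 to 144) in the *Shh* cells of E14.5 with no count in their *Shh*-0 cells, at least 28.3-fold higher when 3 counts are taken as the limit for a count of 0. It had a UMI in 30.7% of the 75 *Shh* cells (20.5 to 42.4) and in 0.809% of the 371 at E16.5 (0.167 to 2.34). The stages were not compared at matched depth. *Fgf15* was at 76.9 CPM (58.1 to 99.8) against 0 counts, at least 18.6-fold higher by the same limit. Its UMIs were in 22.7% of *Shh* cells at E14.5 (13.8 to 33.8) and in none at E16.5, which allows a share of cells with a UMI of up to 0.809% when 3 cells are taken as that limit. *Bmp2* had a UMI in 37.3% (26.4 to 49.3) and 7.82% (5.30 to 11.03) of *Shh* cells, and *Dkk4* in 17.3% (9.57 to 27.8) and 0.270% (0.00682 to 1.49). Of the 20 genes of the enamel knot list 12 were ranked at E14.5 and all 12 were higher, beside 4.12% of all genes ranked at that stage. Their median log2 ratio was 2.10 beside -0.15 over all genes ranked. Members such as *Wnt10a* and *Fgf9*, with a UMI in 1.37% and 6.85% of *Shh*-0 cells, passed the filter only through the *Shh* cells. The count and the median are therefore a description.

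The following counts for E14.5 stand beside 4.12% of all ranked genes called higher and 2.55% called lower at that stage. They are not set against those of E16.5. Some genes, such as *Bmp2* with a UMI in 2.74% of *Shh*-0 cells, passed the filter only through the *Shh* cells, so the counts are a description. Of 7 ranked BMP ligands, antagonists and inhibitors 5 were higher, among them *Bmp2* (79.6 against 2.75 CPM), *Bmp4* (65.9 against 9.64 CPM) and *Fst* (765 against 156 CPM). All 5 ranked genes of the Wnt response were higher, with *Axin2* at 100.2 against 19.3 CPM and *Lef1* at 224 against 28.9 CPM. *Sostdc1* was at 28.8 against 541 CPM, the smallest ratio of that stage. *Ptch1* stood at 114 against 125 CPM. The cell cycle list was at 1585 against 2659 CPM, a ratio of 0.596 (0.554 to 0.642), and the S phase list at 620.4 against 1255 CPM, where *Rrm2*, *Mcm7* and *Mcm3* were lower. At E16.5 the corresponding ratios were 0.974 and 0.910. *Cdkn1a* was higher at E14.5 also, at 273 against 66.1 CPM.

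*Vwde* and *Igfbpl1* were found in a larger share of the *Shh* cells of E16.5, unlike *Fgf9*, which had a UMI in 46.7% of those of E14.5 and 45.8% of those of E16.5. *Vwde* had a UMI in 12.0% of the *Shh* cells of E14.5 (5.64 to 21.6) and in 76.3% of those of E16.5 (71.6 to 80.5), at 20.6 CPM (11.52 to 34.0) and 365 CPM (349 to 382) in the matched cells. *Igfbpl1* had a UMI in 21.3% (12.7 to 32.3) and 71.4% (66.5 to 76.0), at 61.8 CPM (45.1 to 82.7) and 339.8 CPM (325 to 356). Depth and stage differ together here, with medians of 5898 and 9816 UMIs in the *Shh* cells, and the intervals of the levels in CPM do not overlap for either gene. *Ambn* had no count at E14.5, where 0 of 75 cells allow a share of cells with a UMI of up to 4% by the same limit and 4.80% by the exact interval, and a UMI in 17.0% of the *Shh* cells of E16.5 (13.3 to 21.2). *Enam* was found at both stages, in 13.3% (6.58 to 23.2) and 8.63% (5.97 to 12.0) of *Shh* cells. Of the immediate early and stress genes *Jun*, *Junb* and *Atf3* were higher in the *Shh* cells of E14.5, with a sum over the list of 3815 against 1758 CPM and *Atf3* at 706 against 150.04 CPM. Erythroid genes were at 12239.9 against 5501 CPM. Over single cells the medians of the erythroid genes were 672 and 533 CPM, and the highest cells stood at 431231 and 495829 CPM. The part of the stress and erythroid genes in the differences between stages was not tested.

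**Figure D3:**
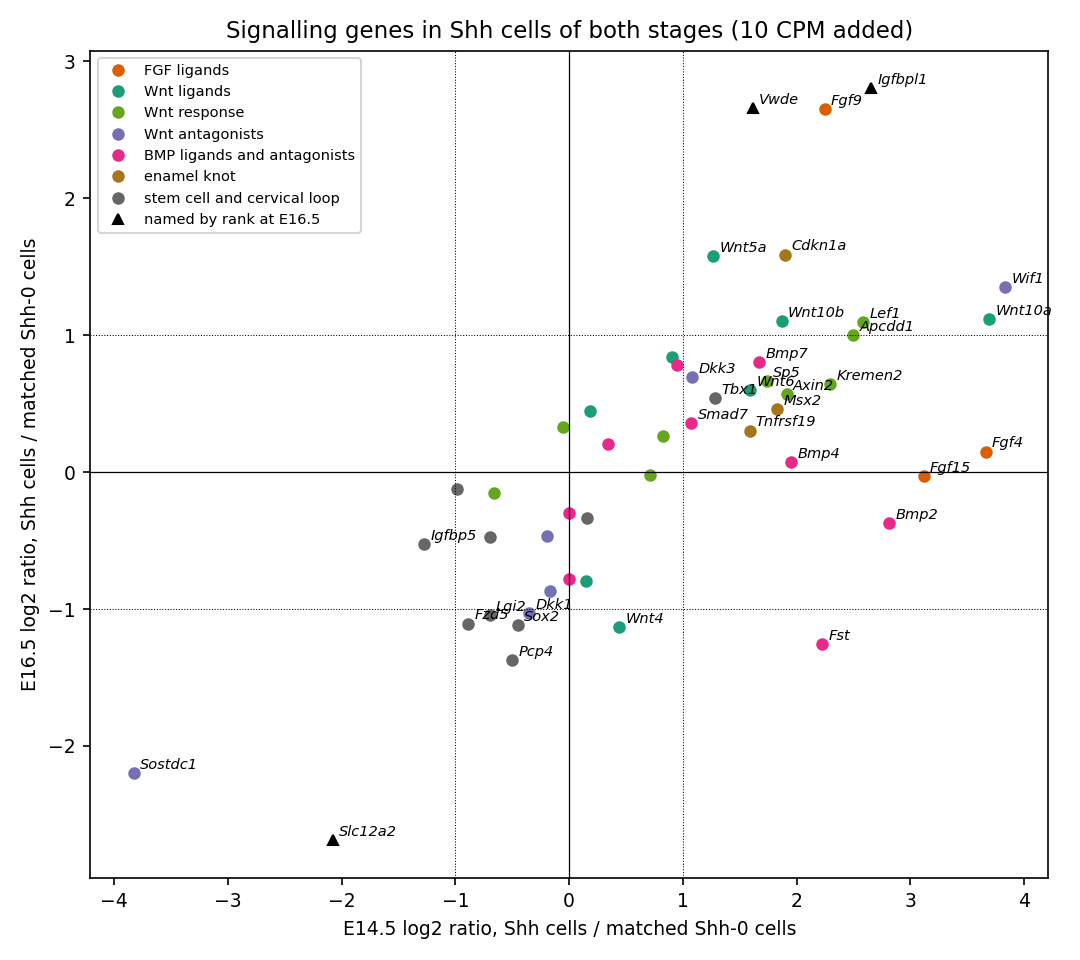
Log2 ratio between *Shh* cells and depth-matched *Shh*-0 cells (10 CPM added to each side) at E14.5 (horizontal) and E16.5 (vertical) for genes of 7 signalling and marker lists that were ranked at either stage, with *Vwde*, *Igfbpl1* and *Slc12a2* added as triangles and dotted lines at 1 and -1. *Fgf4*, *Fgf15* and *Bmp2* lie far to the right at ratios near 0 on the vertical axis, *Fgf9*, *Wnt5a* and *Cdkn1a* are past 1 on both, *Sostdc1* is past -1 on both, and *Fst* is higher at E14.5 and lower at E16.5.

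Within the *Shh* cells of E16.5 several of the leading genes were at higher levels in cells richer in *Shh*. The bands rest on the gene that chose the cells, so their values are a description. The 371 cells were split into 3 bands of nearly equal number by *Shh* UMIs per 10000 UMIs, with medians of 2.34, 5.10 and 11.53. The low band was the deepest, at a median of 14348 UMIs against 8650.5 and 8061, since a deep cell reaches 2 UMIs at a low level of *Shh*. From the low to the high band *Vwde* was at 250.2 (230.4 to 271), 338 (312 to 366) and 607 (567 to 649) CPM and *Igfbpl1* at 225 (206 to 245), 344 (317 to 372) and 521 (485 to 560.1) CPM. *Fgf9* was at 40.9 (33.1 to 49.9), 85.5 (72.4 to 100.3) and 192 (169.9 to 216) CPM, *Slc40a1* at 37.5 (30.04 to 46.1), 81.6 (68.8 to 96.0) and 221 (197 to 247) CPM, and *Wnt10b* at 4.68 (2.34 to 8.38), 15.9 (10.5 to 22.9) and 29.2 (21.0 to 39.5) CPM. A UMI of *Vwde* was in 73.2%, 79.8% and 75.8% of cells as sequenced, and in 32.5%, 44.4% and 47.5% after each cell had been thinned to 2000 UMIs. For *Fgf9* the shares were 36.6%, 46.8% and 54.0% as sequenced and 6.50%, 12.1% and 21.7% after thinning.

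Cells with 1 *Shh* UMI, just outside the rule, held the leading genes above the level of *Shh*-0 cells, with *Vwde* at 187 (165 to 211) CPM, *Igfbpl1* at 213 (189.5 to 239) CPM and *Fgf9* at 34.2 (25.1 to 45.5) CPM. They stood between the low band and the *Shh*-0 cells for *Slc12a2*, at 225 CPM against 89.4 and 415, and for *Sostdc1*, at 628 against 239 and 1043 CPM. *Slc12a2* was at 31.2 and 29.2 CPM in the middle and high bands.

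Other genes had no such order. *Rprm*, also among the 10 genes of highest rank, was at 33.2 (26.2 to 41.4), 82.7 (69.8 to 97.2) and 72.3 (59.1 to 87.6) CPM, and *Cdkn1a* at 148 (133 to 164), 231 (209 to 254) and 222 (198 to 248) CPM, both with overlapping intervals in the middle and high bands. *Wnt10a*, at 24.3, 32.3 and 32.0 CPM from the low to the high band, had overlapping intervals. *Ptch1*, at 164 (148 to 182), 166 (147 to 186) and 204 (182 to 229) CPM, was below the *Shh*-0 level of 255 CPM in all 3 bands. *Ambn* was at 24.3 (18.4 to 31.4), 45.3 (35.9 to 56.4) and 13.2 (7.95 to 20.6) CPM, with its peak in the middle band and its lowest level in the band richest in *Shh*. The summed cell cycle list was at 2490.0, 2398 and 2682 CPM. *Dcn*, a mesenchymal gene, went the other way from the low to the high band. It was at 117 (104 to 132), 74.8 (62.6 to 88.7) and 22.9 (15.8 to 32.2) CPM, against 171 CPM in matched *Shh*-0 cells.

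**Figure D4:**
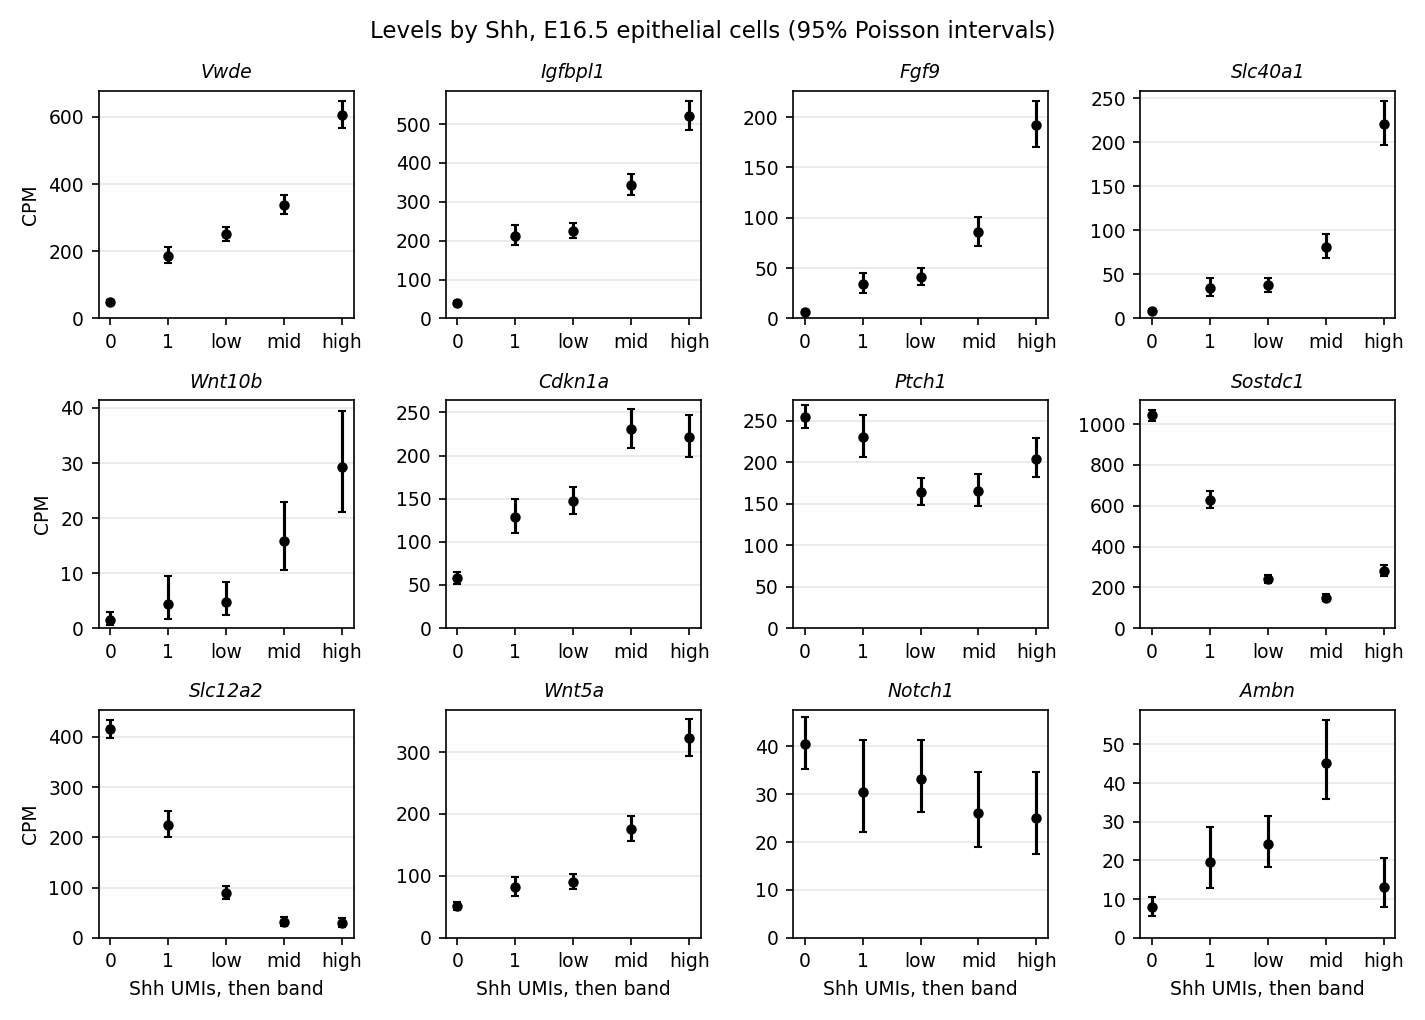
Level in CPM of 12 genes in E16.5 epithelial cells grouped by *Shh*: 369 matched cells with 0 UMIs, 128 cells with 1 UMI, and the 371 *Shh* cells in a low, middle and high band of *Shh* per 10000 UMIs, with 95% Poisson intervals. *Vwde*, *Igfbpl1*, *Fgf9* and *Slc40a1* are highest in the high band, *Slc12a2* and *Sostdc1* are highest in cells with 0 UMIs, and *Ambn* is highest in the middle band at 45.3 CPM.

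Cell by cell the relation with *Shh* was weak. After thinning to 2000 UMIs, 367 *Shh* cells and 2789 genes gave Spearman correlations with *Shh* from -0.20 for *Knstrn* to 0.25 for *Tnfrsf19*, the latter followed by *Slc40a1* (0.24), *Ptprd* (0.20), *mt-Co3* (0.20) and *Lamp2* (0.19). Such values in sparse counts, from cells that share a library and differ in depth, are no finding.

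The *Shh* cells were not uniform in the genes that led the comparison. A UMI of all 3 of *Igfbpl1*, *Vwde* and *Fgf9* was in 133 of them (35.8%), of 2 in 127 (34.2%), of 1 in 65 (17.5%) and of none in 46 (12.4%). In the matched *Shh*-0 cells the shares were 2.98%, 13.3%, 13.0% and 70.7%. The 46 cells without any of the 3 genes had a median of 8820.5 UMIs, near that of the cells with 1 or 2 (8670 and 8668), while the 133 cells with all 3 were deeper at 13253. Their *Shh* was at 399 (349 to 454) CPM against 697 (665 to 729) CPM in cells with all 3.

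Some genes listed for the inner layers of the enamel organ were at lower levels in cells with all 3 leading genes than in cells with none, and *Wnt4*, of the same list, was not. The genes and the grouping were chosen after their values had been seen. From cells with none to cells with all 3 leading genes, *Cldn10* was at 269 (229 to 315), 137, 39.0 and 27.8 (21.8 to 35.0) CPM, and *Alpl* was at 123 (95.7 to 155), 87.8, 38.3 and 16.4 (11.9 to 22.1) CPM. In the same order *Notch1* was at 51.8 (34.9 to 73.9), 59.8, 24.9 and 16.8 (12.2 to 22.5) CPM and *Notch2* at 126 (98.8 to 158), 73.8, 39.0 and 48.4 (40.4 to 57.6) CPM. *Hes1* was highest in cells with 1 of the genes, at 250.3 (211 to 295), 327, 132 and 127 (114 to 141) CPM. *Wnt4* was at 58.7 (40.7 to 82.0), 112, 109 and 122 (109 to 136) CPM, lowest in cells with none. *Nectin4* and *Zfp750*, a regulator of epidermal differentiation, were at 55.2 and 55.2 CPM against 11.4 and 7.24 CPM. Levels were higher in cells with all 3 than in cells with none for *Nr2f2*, a nuclear receptor gene, at 22.4 (12.0 to 38.4) CPM in cells with none and 289 (268 to 309.9) CPM in cells with all 3, for *Wnt5a*, at 57.0 (39.2 to 80.01) and 257 (238 to 278) CPM, and for *Ptch1*, at 74.2 (53.7 to 100) and 213 (196 to 232) CPM. *Sp6* was at 157 (126 to 193) and 196 (179.7 to 214) CPM and *Sostdc1* at 197 (162 to 236) and 243 (225 to 263) CPM, so cells with none of the leading genes kept *Sp6* well above the 61.3 CPM of *Shh*-0 cells and *Sostdc1* well below their 1043 CPM.

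**Figure D5:**
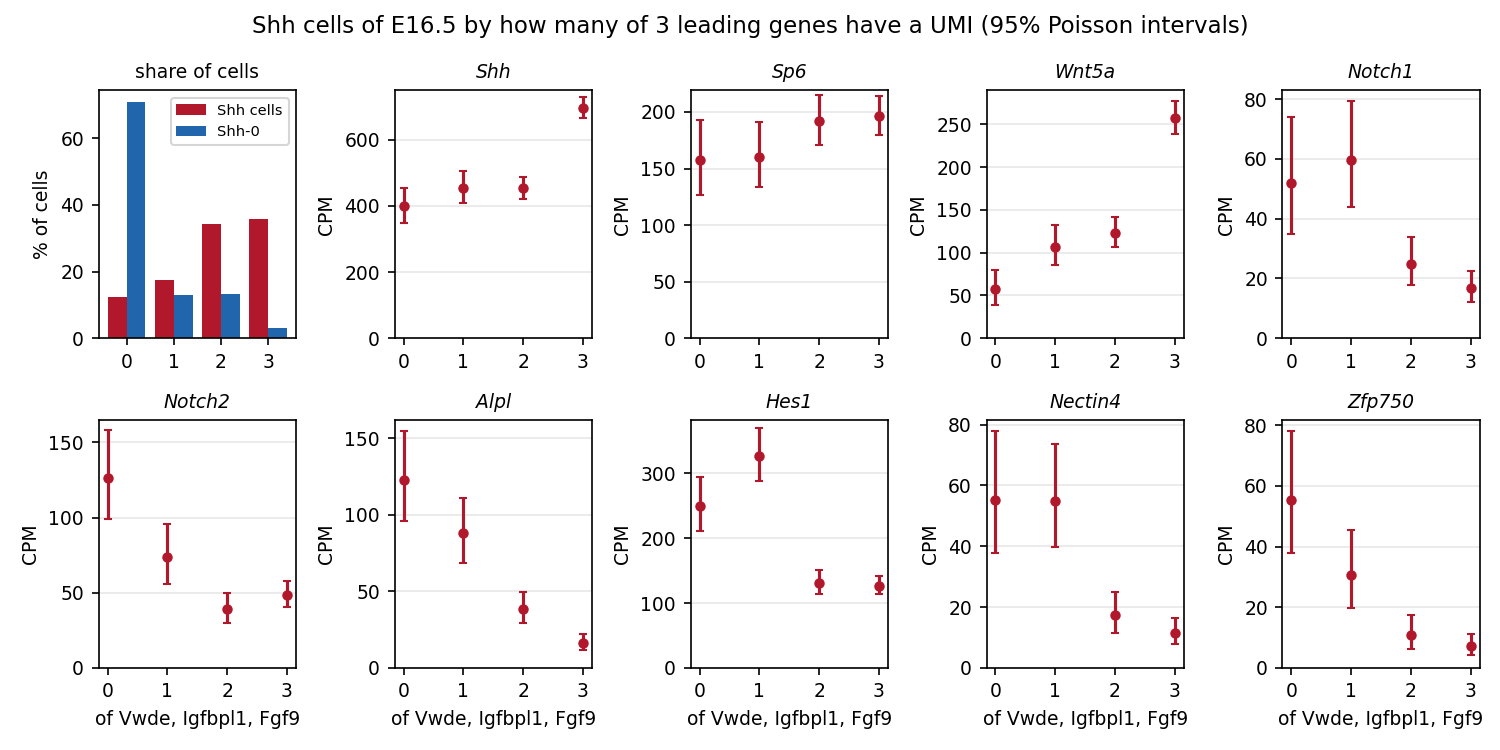
The *Shh* cells of E16.5 grouped by how many of *Vwde*, *Igfbpl1* and *Fgf9* have a UMI (46, 65, 127 and 133 cells for 0 to 3): the share of *Shh* cells (red bars) and matched *Shh*-0 cells (blue bars) in each group, and the level in CPM of 9 genes in the *Shh* cells with 95% Poisson intervals. *Alpl*, *Nectin4* and *Zfp750* are highest in cells with none, *Wnt5a* is highest in cells with all 3, and *Sp6* lies between 157 and 196 CPM in these 2 groups.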

How the data were processed

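The series measured RNA in single cells of embryonic mouse mandibles and incisor buds. The authors aligned the reads to mm10 and counted UMIs per gene and barcode with Cell Ranger (version 4.0.0), and deposited 1 filtered matrix of raw counts for each stage, with 32285 genes. No deposited column was left unused (0), and no barcode names its sample. Groups, levels and intervals were computed from these counts with Python (3.11.15), NumPy (2.4.6) and SciPy (1.17.1), after the scripts had been tested on simulated data. Each *Shh* cell was paired without replacement with the *Shh*-0 cell nearest in total UMIs, within 10%. Poisson, Clopper-Pearson and conditional ratio intervals are exact. The rule for cells, the 31 gene lists and the rule for named genes (all list members, the 25 largest and 15 smallest ratios, and the 5 largest positive correlations with *Shh*) were chosen with earlier results of these data known. Some list members, and a planned comparison within a subset of these cells, are not reported here. Mesenchymal cells had a UMI of at least 2 of the 3 mesenchymal and at most 1 of the 9 epithelial genes, and under 20% erythroid UMIs. Scrublet, run through scanpy (1.11.5), called 2 of 4511 cells doublets and so had not worked as a caller; the 5% of cells with the highest scores were left out as an alternative instead. Positions are those of the GENCODE vM21 annotation, which may differ from the one used for counting, and 488 of 488 named genes matched by identifier.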

Additional observations from a re-analysis of the deposited data

Results flagged for a closer look

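For 6 genes the ratio between *Shh* cells and matched *Shh*-0 cells was past 2-fold in opposite directions at E16.5 and E14.5. Each stage is 1 sample, so the difference between stages was not tested. *Fst*, which encodes the activin and BMP antagonist follistatin, had a log2 ratio of -1.25 at E16.5 and 2.23 at E14.5. *Maf*, a leucine zipper transcription factor, had -1.16 and 1.56, and *Nfia*, a nuclear factor I gene, had -1.21 and 1.26. The other genes were globins. *Hba-a1* had -1.98 at E16.5 and 1.13 at E14.5, *Hba-a2* -2.00 and 1.02, and *Hbb-bs* -1.94 and 1.38. At E16.5 these 3 globin values changed sign without the few cells rich in erythroid transcripts. No such run was made at E14.5, where the highest single cells stood at 431231 CPM (*Shh*) and 495829 CPM (*Shh*-0) of erythroid genes.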

How the results depend on the processing

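No paired analysis was possible because no cell can be assigned to a sample, and for the same reason no replicate was left out in turn. The share of *Shh* cells, 22.4% at 2 UMIs, was 30.1% at 1 UMI or more and 17.6% at 3 or more. The counts of 93 genes higher and 83 lower were 57 and 37 after thinning to 2000 UMIs. Fewer genes, 3044, could then be ranked, and 44 and 25 were among the 93 and 83. The counts were 222 and 192 with 1 CPM added and 18 and 18 with 50 CPM. At 1 *Shh* UMI or more 55 genes were lower. Against *Shh*-0 cells without *Krt15* and *Meis2* 50 genes were lower, and only 44 of the 83 were among these. The summed cell cycle list, at -0.04 on the log2 scale, was at 0.0187 with 4 epithelial markers, 0.0668 with no mesenchymal UMI, -0.00106 without the highest Scrublet scores, -0.0788 and 0.0489 at 1 and 3 *Shh* UMIs, 0.0506 without matching and -0.189 without *Krt15* and *Meis2*. Without cells over 1% erythroid UMIs, an alternative chosen after seeing the data, *Hba-a1*, *Hba-a2* and *Hbb-bs* were at 0.22, 0.19 and 0.0526. Of 590 values of 40 named genes under 15 settings, 587 kept their direction and 568 stayed past 2-fold. The 40 genes were picked as the extremes of largely the same cells, so these counts are a description. A gene that was not ranked under a setting gave no value there. Except for the globins and where stated, the cause was not tested.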
